A study of Mus musculus with 21 samples.

Results

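The genes described here encode the proteins of the cytosolic ribosome. They were taken by symbol from the deposited tables (Rpl, Rpl with p, or Rps followed by a number and at most 1 of the letters a, x or l, plus Rpsa). The rule matched 82 of the 25239 symbols in each table, 32 of the small subunit and 50 of the large subunit. In the GENCODE M21 annotation 80 of the 82 are protein-coding, while Rpl32l and Rps4l are listed there as pseudogenes. The libraries were poly(A) RNA-seq of wild-type C57BL/6J mice. Choroid plexus, the epithelium that secretes cerebrospinal fluid, gave 6 libraries from mice with Ins2, a mouse insulin gene, overexpressed in that tissue and 5 control libraries. Hypothalamus gave 5 libraries from mice with Ins2 overexpressed in the choroid plexus and 5 control libraries, numbered 1 to 4 and 6. Controls are labelled as having no treatment, although the columns of the hypothalamus controls carry a GFP prefix. The labels used here state neither age nor sex nor how Ins2 was introduced. They also do not say whether each replicate was a different mouse, so the spread behind every p-value may be partly technical.

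Each ribosome carries 1 set of these proteins on its small and large subunits, and cells make them in matched amounts. The messenger RNAs of many ribosomal proteins begin with a C followed by an unbroken run of pyrimidines, the 5′ terminal oligopyrimidine (TOP) motif. Insulin acts through the kinase mTORC1, which with the RNA-binding protein LARP1 controls the translation of TOP messenger RNAs, a step that messenger RNA levels do not measure. Several members have further roles known from mammals, among them Rpl5 and Rpl11, which bind the p53 regulator Mdm2 when ribosome assembly is disturbed. In bulk tissue, fewer cells of a type and less RNA per cell cannot be told apart.

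The annotated starts of members differed in the TOP motif, and those of members described below are shown for that reason. RefSeq promoter windows on GRCm38.p6, 250 bases before to 50 after an annotated start, were at hand for 61 members (73 windows). A start on C with at least 4 more pyrimidines was found in 14 of the 73 windows (19.2%), against 2.51% of all 32851 windows. The motif CCGGAAG, searched on both strands, lay in 35.6% of member windows and 8.86% of all windows, and TATAAA, likewise on both strands, in 9.59% and 13.6%; neither of these motifs holds the other. Windows of 30 bases follow, 15 before the annotated start and 15 from it on, with the pyrimidine run from the start in capitals. The first 5 hold the motif and the last 3 do not, although another annotated start of Rps21 lacks it. These starts come from the annotation and were not measured in these tissues.
Rps6, minus strand, chr4:86857353-86857382: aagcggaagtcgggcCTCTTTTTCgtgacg
Rplp2, plus strand, chr7:141447636-141447665: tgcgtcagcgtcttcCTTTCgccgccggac
Rpl38, plus strand, chr11:114668565-114668594: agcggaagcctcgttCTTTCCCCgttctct
Rps21, plus strand, chr2:180257364-180257393: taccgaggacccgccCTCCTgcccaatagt
Rps15a, minus strand, chr7:118116133-118116162: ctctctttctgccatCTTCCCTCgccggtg
Rps28, minus strand, chr17:33824548-33824577: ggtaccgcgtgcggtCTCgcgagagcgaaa
Rps12, minus strand, chr10:23787195-23787224: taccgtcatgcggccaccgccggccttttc
Rpl12, plus strand, chr2:32961697-32961726: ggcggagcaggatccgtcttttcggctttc

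The deposited values are read counts divided by a size factor per library, called normalised read counts here, and the tables of the 2 tissues were scaled separately. Library depth, recovered from these values, was 25.95 to 36.3 M (M, 1000000 reads) in choroid plexus and 27.4 to 62.1 M in hypothalamus. The 8 choroid plexus epithelial markers went with the labelled tissue, summing to 4671900 to 5393596 normalised counts per library in choroid plexus and to 7799 to 9025 in hypothalamus. Ins2 itself had 598 to 1041 normalised counts in the Ins2 libraries of choroid plexus, against 387 to 501 in its control libraries. In hypothalamus Ins2 was listed at 0 in 9 of 10 libraries. Choroid plexus control 2 stood apart in markers of oligodendrocytes, hypothalamic peptides (3 of 8 tested) and astrocytes, with medians 4.69, 3.50 and 1.67 above the control mean on the log2 scale. Its ribosomal protein genes were at −0.05.

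Ribosomal protein genes were abundant in both tissues, with a few low exceptions. The mean normalised count reached 1000 in 71 of 82 members in choroid plexus and in 73 in hypothalamus. Together they took 0.795% to 1.08% of reads in the choroid plexus Ins2 libraries and 0.913% to 0.992% in its controls. In hypothalamus they took 1.48% to 1.58% in the Ins2 libraries and 1.45% to 1.96% in the controls. Per kilobase of annotated exon, Rplp1, a protein of the stalk that recruits elongation factors, was highest, with 13054 normalised counts per kilobase in choroid plexus and 27411 in hypothalamus. Rpl41, whose coding sequence of 75 bases is the shortest of the members, followed in choroid plexus with 8486, and Rps15 with 7695. In hypothalamus Rps15 (15281) and Rpl19 (11481) came next.

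The low protein-coding members included 2 kinds. Rpl3l, Rpl10l and Rpl39l are paralogs known from striated muscle or testis, and they were low or at 0: Rpl10l was listed at 0 in all libraries, Rpl39l averaged 1.83 and 0.870 normalised counts in choroid plexus and hypothalamus, and Rpl3l 9.29 and 16.3. Rpl26, Rpl30, Rpl34 and Rps27, by contrast, encode core proteins of every ribosome. Rpl26 was nevertheless listed at 0 in all 21 libraries, and Rpl30, Rpl34 and Rps27 averaged 26.3, 37.8 and 22.95 normalised counts in choroid plexus and 18.2, 43.8 and 55.7 in hypothalamus. Such values are taken as listed and not as a lack of the messenger RNA.

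Most members share sequence with processed pseudogenes, so their counts depend on how the authors' counting treated reads with several matches, which the sources used here do not give. Of the 80 protein-coding members, 44 had at least 90% of the 50-base words of their coding sequence in transcripts of other genes, and 29 had all of them. The low core members did not stand apart in this: the share was 87.3% for Rpl26, 83.1% for Rpl30, 72.2% for Rpl34 and 100% for Rps27, and 100% also for Rps6, which averaged 7169 normalised counts in choroid plexus. The closest annotated copies of the low members held almost no reads either, with Rps27rt, Gm15772 (of Rpl26) and Rpl34-ps1 at 0 in both tables. Rps6-ps4, which holds every such word of Rps6, averaged 777 in choroid plexus and 1683 in hypothalamus, 10.8% and 11.5% of Rps6. Exons of 18 members overlap a gene on the opposite strand, and in 6 of them (Rpl35, Rpl23a, Rpl31, Rps25, Rpl5 and Rpl30) by over 20% of exon bases. Whether counting used strand is not given, so these are uncertain.

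Most members took a larger share of reads in hypothalamus than in choroid plexus, and a few departed from the common ratio. The ratios are described with no test since the tables were scaled separately. Over the 73 members with a mean of at least 200 in choroid plexus, reads per M reads in hypothalamus were a median 1.70 times those in choroid plexus. Rpsa, the laminin receptor and small-subunit protein, stood at 3.44 times and Rpl37 at 3.09 times. Rps4l was at 24.4 times, with 1360 normalised counts on average in hypothalamus and 46.5 in choroid plexus. Rps27l, a p53-responsive paralog of Rps27, went the other way at 0.281 times, averaging 404 in hypothalamus and 1198 in choroid plexus. Rpl41 was at 0.803 times.

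Ribosomal protein genes varied together from library to library. For each library the log2(value + 1) of a gene was set against the mean of the control libraries of its tissue, and the median over the members tested (mean of at least 10; 77 in choroid plexus, 78 in hypothalamus) was taken. In choroid plexus the medians of Ins2 libraries 1 to 6 were 0.06, −0.24, −0.08, 0.04, 0.14 and 0.14, and those of controls 1 to 5 were −0.03, −0.05, −0.02, 0.04 and 0.06. Ins2 2 was the lowest library and Ins2 5 and 6 were the highest, so the Ins2 libraries lay on both sides of the controls. In hypothalamus the medians of Ins2 libraries 1 to 5 were −0.04, −0.06, −0.10, −0.06 and −0.07, and those of controls 1, 2, 3, 4 and 6 were −0.06, −0.16, 0.02, 0.27 and −0.06. Control 4 stood above every other library and control 2 below every other, and the Ins2 libraries lay close together between them. The median over all tested genes was within 0.01 of 0 in each of the 21 libraries. The scaling by size factors holds the typical gene near 0, so such medians over all tested genes follow largely from it.

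**Figure D1:**
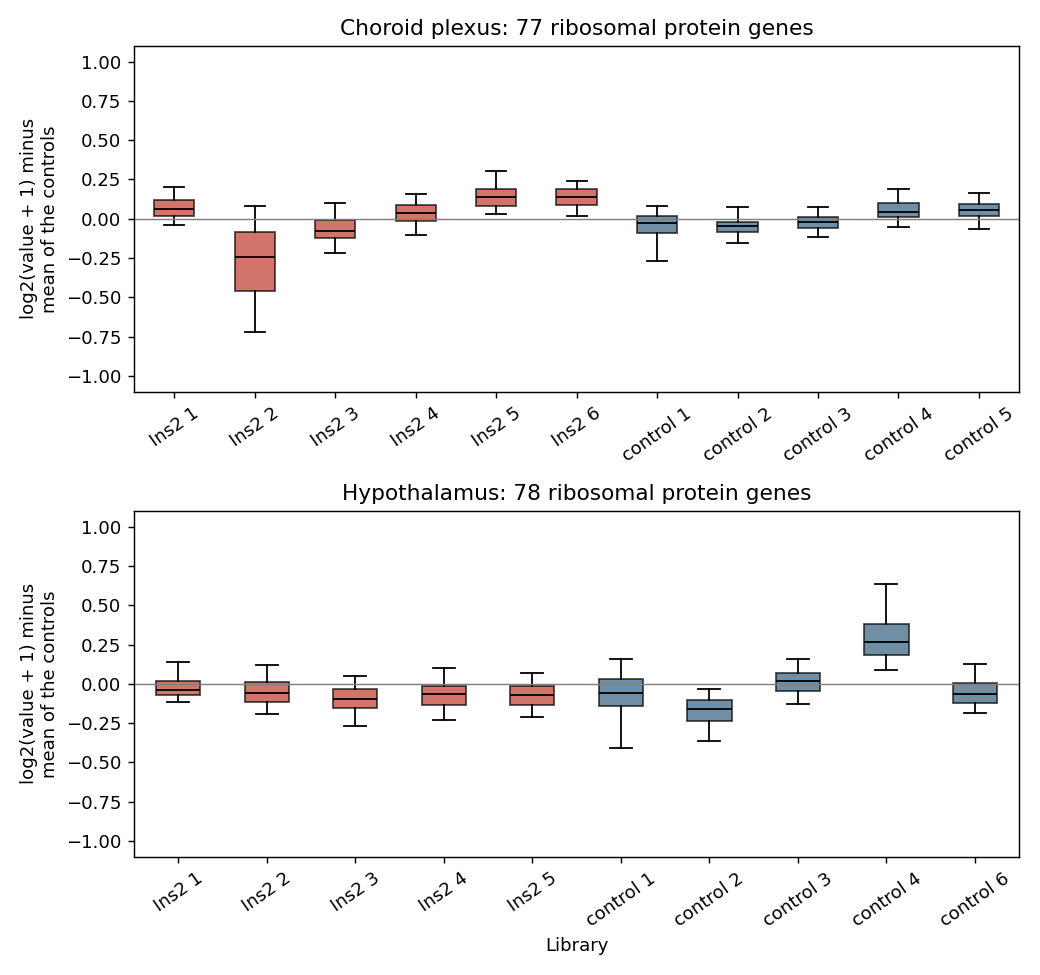
Difference of log2(normalised read count + 1) from the mean of the control libraries, for 77 ribosomal protein genes in choroid plexus (top) and 78 in hypothalamus (bottom), by library; boxes span the quartiles with the median as a line, whiskers run from the 5th to the 95th percentile, Ins2 libraries are red and controls blue. Choroid plexus Ins2 2 (median −0.24) and hypothalamus control 4 (median 0.27) lie away from the other libraries.

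Within groups, the profile averaged over members held 31.4% of the mean variance of single members in choroid plexus and 26.0% in hypothalamus. For all tested genes, whose average profile the scaling keeps near 0, the share was 1.11% and 0.211%. Over the members with a mean of at least 200 it was 50.6% in choroid plexus and 55.5% in hypothalamus. Subunits of oxidative phosphorylation, which like the ribosomal proteins form large complexes, had 57.6% and 30.7% without that floor of 200. The shares are descriptions of genes measured in the same libraries. With choroid plexus Ins2 2 left out the share was 14.1% for the members and 38.5% for oxidative phosphorylation. With hypothalamus control 4 left out it was 10.2% and 8.89%. After the same exclusions, members with a mean of at least 200 had 29.8% in choroid plexus and 25.2% in hypothalamus. Both subunits took part: in Ins2 2 of choroid plexus the small-subunit median was −0.23 and the large-subunit median −0.26, and in control 4 of hypothalamus they were 0.25 and 0.28.

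Hypothalamus control 4 had high values for nearly all members. Set against the mean of the other 4 controls, 76 of 78 members were higher there, by a median of 0.33 on the log2 scale (quartiles 0.23 and 0.48). The median over all tested genes, held near 0 by the scaling, was 0.00. Control 4 was singled out with its high values for these genes known, so the counts describe it and are no test. It was the highest of all 10 hypothalamus libraries in 69 of 78 members (88.5%), which holds for 20.4% of all tested genes. The other 9 members included Rpl13, Rpl30, Rpl34, Rpl3l, Rps10, Rps27, Rps27a and Rps4l. Control 4 had 27.6 M reads, near the lower end of the depths, and depth was not tested as a source of the difference.

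The largest gaps were those of short small-subunit and large-subunit proteins. Rps29, a zinc-finger protein of the small-subunit head, had 5479 normalised counts in control 4. It had 3188, 2973, 3050, 2909 and 3130 in the Ins2 libraries, against 2271, 2501, 3046 and 3233 in controls 1, 2, 3 and 6. Control 4 was 2 times the geometric mean of these 4 controls, whose range held all Ins2 libraries. Rps28 had 3310 in control 4. It had 1792, 1768, 1786, 1655 and 1769 in the Ins2 libraries and 1627, 1728, 1746 and 1854 in the other controls. Control 4 stood alone at 1.91 times the other controls, and the remaining 9 libraries overlapped. Rpl38, a large-subunit protein whose loss alters the mouse skeleton, had 5733 in control 4, with 3132 to 3467 in the Ins2 libraries and 2589 to 3633 in the other controls. For Rpl36a and Rps21 control 4 was 1.83 and 1.73 times the other controls. At the other end, Rps2 and Rpl29 were 0.09 and 0.11 higher on the log2 scale, Rps4l was 0.07 lower, and the low paralog Rpl3l had 2.54 normalised counts in control 4 against 8.81 to 32.8 in the other controls.

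Among the members the gap went with the length of the coding sequence and less with that of the exons. In hypothalamus control 4 the median difference from the other controls was 0.48 for the 26 protein-coding members of 75 to 399 coding bases, 0.36 for the 25 of 405 to 564 and 0.27 for the 26 of 576 to 1257 (Spearman's rho −0.60 over 77 members, which share the library). Choroid plexus Ins2 2 showed the opposite sign against the other Ins2 libraries, with −0.48, −0.40 and −0.17 in the same 3 classes (rho 0.53 over 76 members). By annotated exon length, in classes of up to 1000, 2000, 4000 and more bases, the medians of the members in control 4 were 0.38, 0.38, 0.29 and 0.33, and those in Ins2 2 were −0.40, −0.32, −0.27 and −0.35. The classes held 11, 32, 29 and 6 members in hypothalamus and 11, 31, 29 and 6 in choroid plexus. Over all tested genes in the same classes the medians were 0.22, 0.13, 0.04 and −0.04 in control 4 and −0.26, −0.16, −0.05 and 0.06 in Ins2 2. The members thus lay farther from 0 than all genes in each class, and their values differed less between classes.

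**Figure D2:**
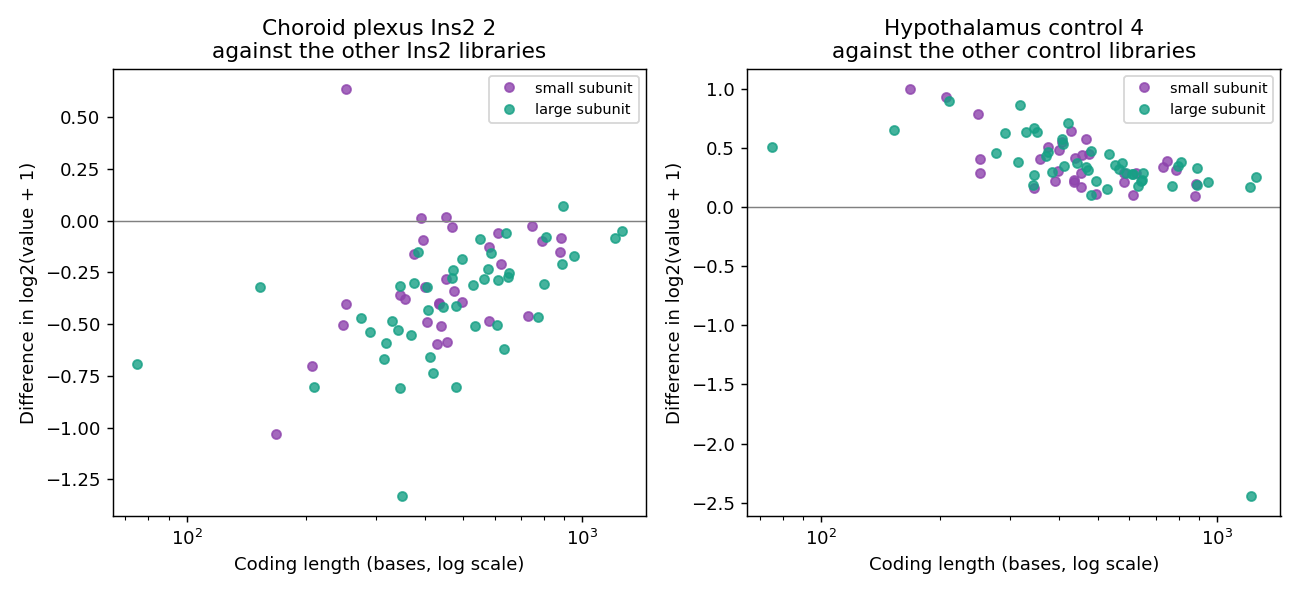
Coding length in bases (log scale) against the difference in log2(normalised read count + 1) between choroid plexus Ins2 2 and the mean of the other Ins2 libraries (left) or hypothalamus control 4 and the mean of the other controls (right); each point is 1 protein-coding member, coloured by subunit. Class medians lie farthest from 0 for short genes, at −0.48 and 0.48, although a point of that class lies at 0.64 on the left. The point at −2.44 on the right is Rpl3l, of the long class.

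Choroid plexus Ins2 2 was lowest of the 11 libraries in 58 of 77 members (75.3%), against 15.7% of all tested genes. Ins2 2 was likewise set apart with its values known, so this count is a description. Rps29 had 635 normalised counts there, against 1040 to 1575 in the other Ins2 libraries and 1149 to 1345 in the controls. Rpl41 had 6348 in Ins2 2, where the other Ins2 libraries had 8774 to 11539 and the controls 8958 to 11011. Rps6, the small-subunit protein that S6 kinase phosphorylates, did not follow, with 7201 in Ins2 2, 6751 to 8180 in the other Ins2 libraries and 6691 to 7364 in the controls. Ins2 2 was the deepest choroid plexus library, at 36.3 M reads. Markers of several other cell types also had medians below the mean of the other Ins2 libraries in it. Ins2 2 was lowest of the 11 libraries in 2 neuronal, 3 astrocyte and 2 microglia and macrophage markers. It was lowest in 0 markers of oligodendrocytes, endothelium and hypothalamic peptides. Against the other Ins2 libraries the median was −1.55 for neurons (3 of 6 tested), −0.87 for hypothalamic peptides (3 of 8), −0.84 for microglia and macrophages (6, of which 5 lower), −0.53 for oligodendrocytes (6, 4 lower), −0.35 for astrocytes (6, 5 lower) and −0.16 for endothelium (5, 3 lower). The 1 tested marker of proliferating cells was lower than in any other choroid plexus library, at 72.8 normalised counts, but control 2 was close at 74.9. The 8 markers of choroid plexus epithelium had a median of 0.05. Summed neuronal markers ran from 179 to 443 normalised counts in Ins2 libraries, against 297 to 465 in controls, and those of microglia and macrophages from 840 to 1555, against 543 to 1176 in controls. Astrocyte markers ran from 3741 to 4957, against 4108 to 10450 in controls, and oligodendrocyte ones from 2274 to 5531, against 2300 to 52264 in controls. None of these markers was at 0 in every library. The part of depth and of RNA from these cell types in the low values was not tested.

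Cell type markers lay on both sides of 0 in hypothalamus control 4. Against the other controls its medians were 0.02 for neurons (6 markers), −0.02 for astrocytes (6), 0.05 for oligodendrocytes (6), 0.07 for microglia and macrophages (5 of 6 tested), −0.02 for endothelium (5), 0.13 for choroid plexus epithelium (8), 0.19 for hypothalamic peptides (8) and −0.14 for thalamus (5). Of 5 red cell markers only Alas2 was tested, at 0.67 higher, and Hba-a1, Hba-a2, Hbb-bs and Hbb-bt were listed at 0 in every library. Summed neuronal markers were 105624 to 108888 in Ins2 libraries and 101154 to 108848 in controls.

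Other gene groups moved with the ribosomal protein genes in these libraries, and some did not. Oxidative phosphorylation subunits, 73 tested in hypothalamus and 72 in choroid plexus, had a median of 0.37 in hypothalamus control 4 against the other controls and of −0.35 in choroid plexus Ins2 2 against the other Ins2 libraries, where the members had 0.33 and −0.32. Mitochondrial ribosomal proteins (77 in each tissue), which are made from separate nuclear genes for the ribosome of mitochondria, had 0.17 and −0.22, and the 0.17 was no larger than the 0.19 of hypothalamic peptides. Other TOP messenger RNAs such as Eef1a1 and Tpt1 (17) were at 0.21 in control 4 but at 0.02 in Ins2 2. Ribosome assembly factors (37 in choroid plexus, 38 in hypothalamus) were at 0.06 and −0.05, and genes of mTORC1 and translation control (20) at −0.006 and 0.04. The groups were chosen with earlier results of these data known, and their medians are descriptions.

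**Figure D3:**
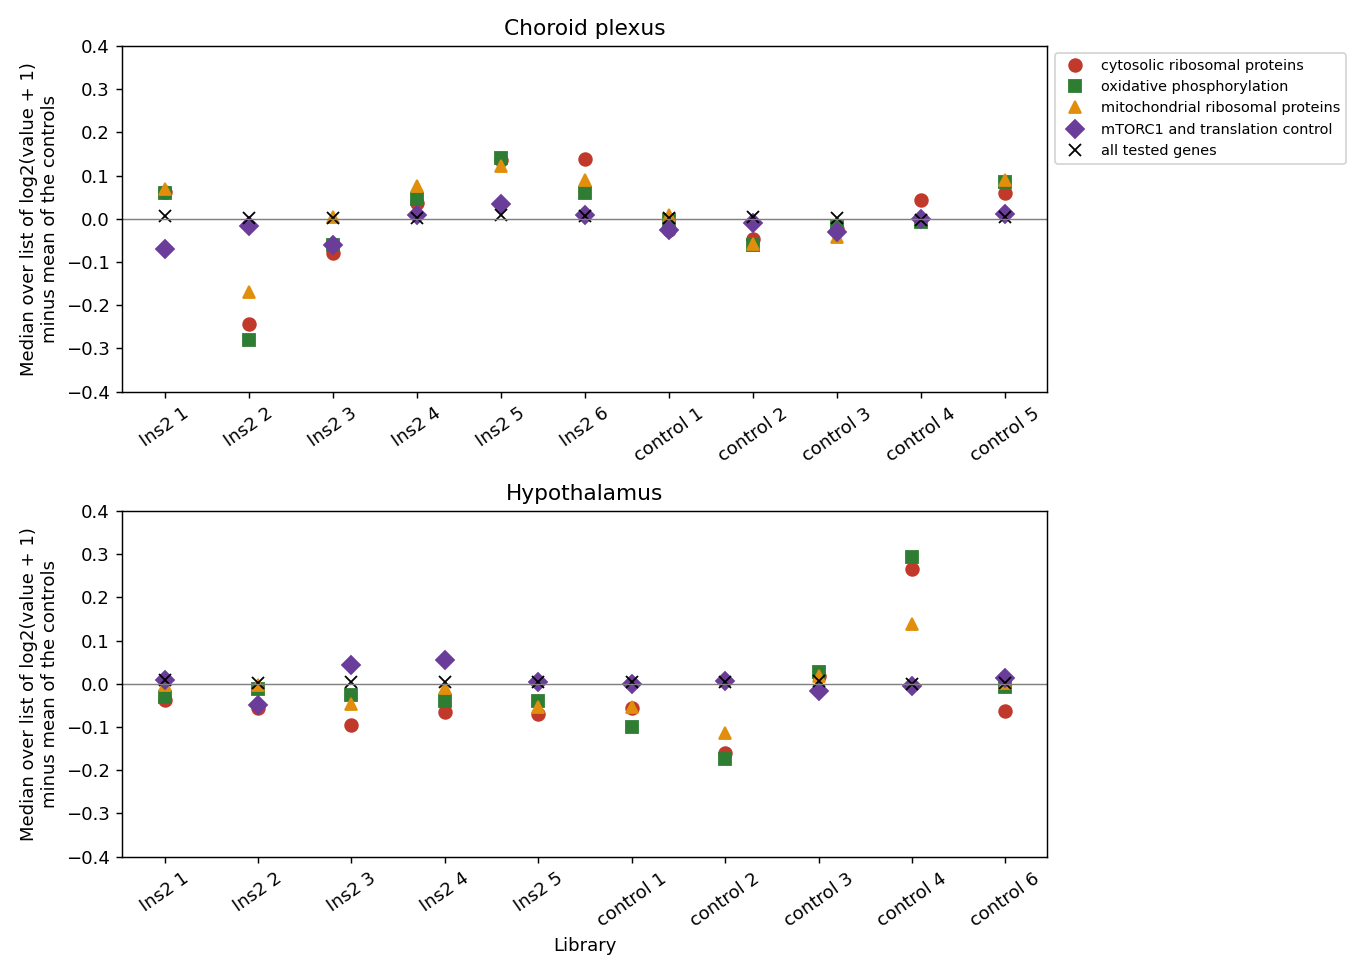
Median over each gene group of log2(normalised read count + 1) minus the mean of the control libraries, by library, in choroid plexus (top) and hypothalamus (bottom). Ribosomal protein genes, oxidative phosphorylation and mitochondrial ribosomal proteins lie below 0 in choroid plexus Ins2 2 and above 0 in hypothalamus control 4. The mTORC1 genes stay near 0 there, as do all tested genes, which the scaling holds near 0.

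In choroid plexus, where Ins2 was overexpressed, no ribosomal protein gene passed the threshold between Ins2 and control libraries. The median log2 fold change of the 77 tested members was 0.003, with 40 above 0, and −0.005 over all tested genes. The test was limma on log2(value + 1) with Benjamini-Hochberg adjustment over all 14533 tested genes and a threshold of 0.05, at which 0.0138% of all genes (2, both higher) were called. At an unadjusted p under 0.05 limma gave 1 member, higher, where 2.54% of all genes were higher and 3.67% lower. edgeR and DESeq2 on recovered reads also called 0 members, with 1 and 2 under 0.05 before adjustment. The ranges of the Ins2 and control libraries overlapped in all 77 members, while they did not in 0.626% of all genes. Single folds ran from 0.814 to 1.28, and the 95% interval lay within 0.8 to 1.25 in 66 of the 77 members.

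Rpl12, a stalk-base protein of the large subunit, was the 1 member under 0.05 before adjustment. It had 2087, 2301 and 2563 normalised counts as lowest, median and highest of the 6 Ins2 libraries, against 2123, 1851, 2060, 2070 and 2204 in the controls. The groups overlapped, and the lowest Ins2 value was that of Ins2 2. Rpl12 averaged 2327 ± 185 in Ins2 and 2061 ± 131 in control libraries (SD, n = 6 and 5), 1.13 times as much (1.03 to 1.24 at 95% confidence; limma adjusted p = 0.703). Its exact two-sided permutation test gave p = 0.0216, not adjusted, and the smallest p the 462 splits allow is 0.00216. Rps14 gave the same exact permutation p with a log2 fold change of 0.10 (limma adjusted p = 0.804). Next above 0 by limma came Rps15a, Rps6 and Rps13, at 0.07, 0.07 and 0.08. Below 0 the smallest p-values were those of Rplp2 (−0.14), Rps3 (−0.09), Rpl41 (−0.11), Rpl23 (−0.11) and Rps28 (−0.10), none under 0.05.

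These small values lean on Ins2 2. Without it, 69 of 77 members lay above 0 and the median was 0.05, with 0.001 over all genes. limma then called 0 members and 0.0137% of all genes, and 5 members were higher at an unadjusted p under 0.05 (among them Rpl12, Rps13, Rps20 and Rps27l), against 2.85% of all genes higher and 5.53% lower. Of the 5 below 0 named above, Rpl41 and Rps28 were then at folds of 1.01 and 1.01 and Rps3 at 0.994.

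Rps27a, which encodes a fusion of ubiquitin and a small-subunit protein, varied more than the other abundant members and not with them. In choroid plexus the Ins2 libraries had 1276, 2202, 3407, 1448, 3731 and 2448 normalised counts and the controls 1288, 3268, 3384, 3461 and 1316. In both groups some libraries lay well below the others, with a gap between 1448 and 2202 that no library filled. The standard error of its log2 fold change was 0.29, where the median member had 0.075. In hypothalamus Rps27a ran from 2615 to 8122 in the Ins2 libraries and from 3213 to 7816 in the controls. Its coding sequence shares all of its 50-base words with other transcripts, and that part was not tested.

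In hypothalamus no ribosomal protein gene passed the threshold either. The median log2 fold change of the 78 tested members was −0.07, with 17 above 0, and 0.001 over all 16363 tested genes, of which limma called 0%. At an unadjusted p under 0.05, 13 members were lower (16.7%) and 0 higher, where 4.08% of all genes were lower and 5.85% higher. edgeR and DESeq2 on recovered reads called 0 members as well, each with 14 under 0.05 before adjustment. The smallest adjusted p of a member was 0.35. The ranges of the groups overlapped in all 78 members, while they did not in 1.5% of all genes. Folds ran from 0.845 to 1.29, and the 95% interval lay within 0.8 to 1.25 in 65 of 78.

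No cell type marker passed the threshold between the same hypothalamus groups, but the values of some lists lay away from 0. The 5 thalamus markers all lay above 0 (median 0.29 on the log2 scale), 2 of them higher at an unadjusted p under 0.05, and they summed to 2875 to 3829 normalised counts in Ins2 libraries and 2615 to 3329 in controls. Hypothalamic peptides had a median of −0.11, with 7 of 8 below 0 and the 1 above 0 higher at that p, and summed to 42804 to 49413 in Ins2 libraries and 40835 to 50943 in controls. Of 6 neuronal markers 3 were higher at that p, with a median of 0.07 over the 6. Without control 4 these medians were 0.21, −0.08 and 0.07. None of these markers was at 0 in every library. The medians were 0.02 for astrocytes, −0.02 for oligodendrocytes, −0.01 for microglia and macrophages, −0.07 for endothelium and 0.08 for choroid plexus epithelium. The part of these cell types in the values of the members was not tested.

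Rps12, a small-subunit protein tied to cell competition in flies, had 3809, 3360, 3272, 3614 and 3609 normalised counts in Ins2 libraries and 4690, 3832, 4093, 4917 and 3421 in controls 1, 2, 3, 4 and 6. Controls 1 and 4 were high, and control 6 lay among the Ins2 libraries. The means were 3533 ± 216 in Ins2 and 4191 ± 614 in control libraries (SD, n = 5 each), 0.849 times as much (0.761 to 0.948 at 95% confidence; limma adjusted p = 0.35). The exact two-sided permutation test gave p = 0.0476, where the smallest of 252 splits is 0.00794.

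Rps4x, the X-linked form of a small-subunit protein, had 9865, 9135, 8683, 8916 and 9025 in Ins2 libraries and 11407, 9606, 9565, 12440 and 9564 in controls. Controls 1 and 4 were again the high ones, and Ins2 1 lay above the other 3 controls. Its fold was 0.872 (0.795 to 0.957 at 95% confidence), with a limma adjusted p of 0.35 and an exact permutation p of 0.0317. All 4 X-linked members (Rpl10, Rpl36a, Rpl39 and Rps4x) lay below 0, as did 61 of the 78 members, and their median was −0.16. Without control 4 it was −0.10, with 1 of the 4 above 0.

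Rps6 had 14288, 13735, 13196, 13332 and 13635 in Ins2 libraries and 15589, 14609, 15012, 19192 and 13404 in controls. Control 4 was far above the rest, and control 6 lay inside the Ins2 range. The fold was 0.882 (0.803 to 0.969), with a limma adjusted p of 0.383 and an exact permutation p of 0.0397. Rpsa had 19270, 18517, 17645, 17780 and 17742 in Ins2 libraries and 21434, 19541, 18671, 22290 and 18325 in controls, with Ins2 1 and 2 inside the control range. Its fold was 0.909 (limma adjusted p = 0.388; exact permutation p = 0.0476). Rpl5, which binds 5S ribosomal RNA together with Rpl11, was at −0.18 on the log2 scale, and Rpl11 itself at 0.03. Other members lower before adjustment included Rpl39, Rpl7, Rpl12, Rps14, Rps7, Rpl10 and Rps19, from −0.24 to −0.11. Above 0 the smallest p-values were those of Rpl34 (0.37, at a mean of 43.8 normalised counts), Rplp1 (0.04), Rpl36 (0.07), Rpl8 (0.04) and Rpl21 (0.07), none under 0.05. The 3 stalk proteins did not share a sign, with Rplp0 at −0.09, Rplp1 at 0.04 and Rplp2 at 0.05, and in choroid plexus they were at 0.06, 0.01 and −0.14. Rpl22, whose loss activates p53 in developing mouse T cells, was at −0.07 in hypothalamus and −0.04 in choroid plexus.

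**Figure D4:**
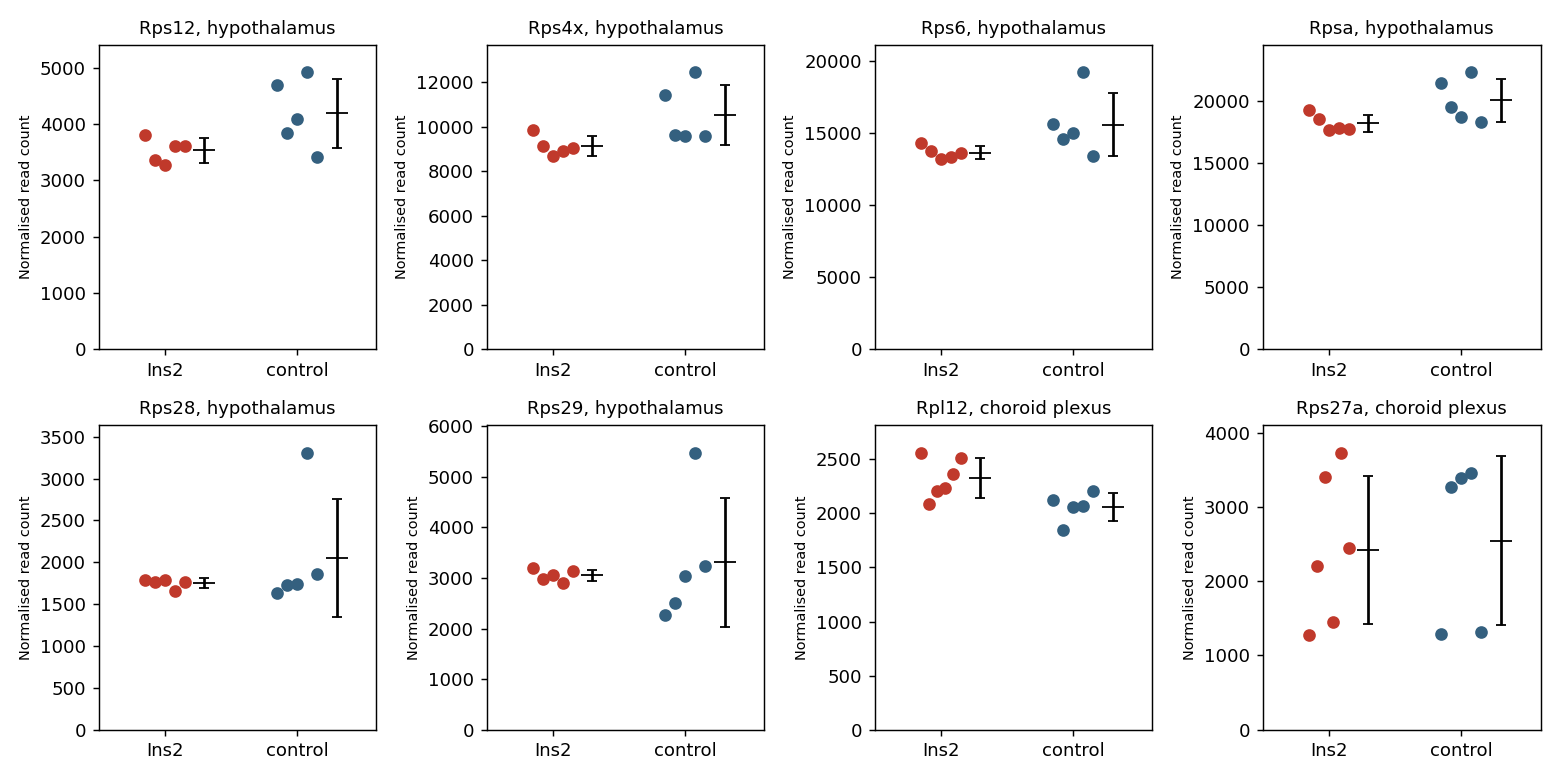
Normalised read counts per library (points), with the mean and SD of each group (black), for 6 members in hypothalamus and for Rpl12 and Rps27a in choroid plexus; Ins2 libraries are red and controls blue. Control 4 is the highest point in the 6 hypothalamus panels, and the groups overlap in each panel.

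The direction of the hypothalamus comparison depended on control 4. Without it the median log2 fold change of the 78 members was 0.02, with 42 above 0, and 27 members were on the other side of 0 than with all libraries. limma called 0 members and 0.00612% of all genes. At an unadjusted p under 0.05, 8 members were lower and 4 higher (Rpl23, Rpl37, Rps29 and Rpl21), against 3.66% of all genes lower and 5% higher. All 8 lower ones were among the 13 found with control 4, and they included Rps4x, Rps12, Rps6, Rpsa, Rpl5, Rps14 and Rpl12. The fold of Rps12 was then 0.886 (95% interval 0.807 to 0.972), that of Rps4x 0.911 (0.850 to 0.977) and that of Rps6 0.932 (0.879 to 0.988), with limma adjusted p-values of 0.491, 0.481 and 0.508. Rps29 went to 1.12 (1.01 to 1.24), against 0.970 with control 4. The long members now had a median of −0.03, with 8 of 26 above 0, and the short ones 0.03, with 16 of 26 above 0.

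**Figure D5:**
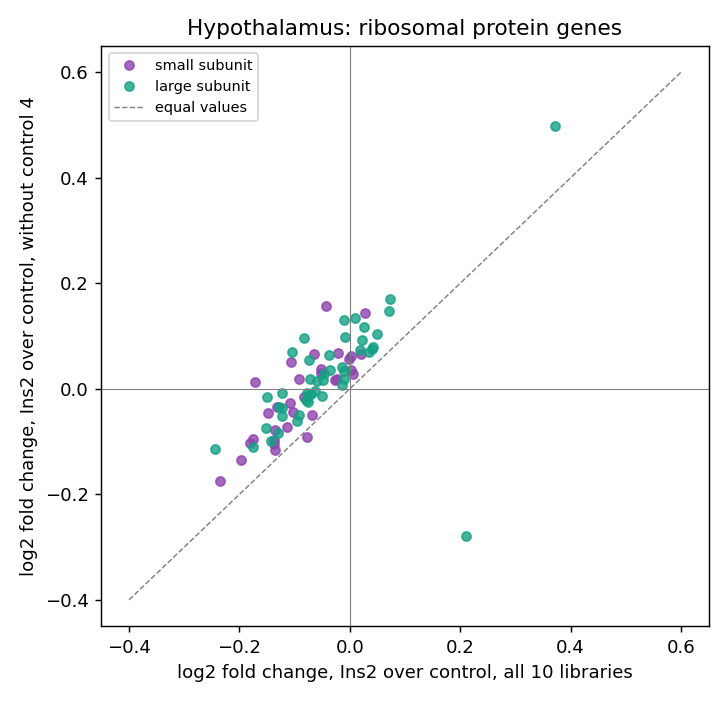
Log2 fold change of Ins2 over control in hypothalamus for 78 ribosomal protein genes with all 10 libraries (horizontal) and without control 4 (vertical), coloured by subunit, with a dashed line of equal values. Of the 78 points 76 lie above the line, and the 2 below it are Rpl3l and Rps4l.

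Between Ins2 and control, 4 other gene groups had no member called by limma in either tissue. In hypothalamus the median log2 fold change was −0.10 for other TOP messenger RNAs, −0.03 for oxidative phosphorylation, −0.01 for mitochondrial ribosomal proteins and 0.007 for mTORC1 and translation control. At an unadjusted p under 0.05, where 4.08% of all genes were lower and 5.85% higher, 7 of 17 other TOP messenger RNAs were lower and 0 higher, 6 of 73 oxidative phosphorylation genes lower and 2 higher, and 5 of 77 mitochondrial ribosomal protein genes lower and 2 higher. At that p 2 of 20 genes of mTORC1 and translation control were lower and 3 higher. Without control 4 the 4 medians were −0.07, 0.02, 0.03 and 0.01. The counts were then 2 lower and 0 higher for other TOP messenger RNAs, 2 lower and 9 higher for oxidative phosphorylation, and 2 lower and 4 higher for mitochondrial ribosomal proteins, against 3.66% of all genes lower and 5% higher. For mTORC1 and translation control they were 0 lower and 2 higher. In choroid plexus the 4 medians were 0.01, 0.001, 0.02 and −0.04. At an unadjusted p under 0.05, 3 of 20 genes of mTORC1 and translation control were lower there and 0 higher. Of the other groups, oxidative phosphorylation had 1 lower and 1 higher, mitochondrial ribosomal proteins 0 and 2, and other TOP messenger RNAs 0 and 0. Among all genes 3.67% were lower and 2.54% higher.

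The fold changes of the 2 tissues were also compared per gene, as the hypothalamus log2 fold change minus that of choroid plexus. No member of 77 passed adjustment, and 0.107% of the 13997 genes tested in both tissues did. Before adjustment 14 members were lower in hypothalamus at p under 0.05 and 0 higher, where 4.74% of all genes were lower and 5.86% higher. Rpl12 had the smallest p, with −0.14 in hypothalamus and 0.17 in choroid plexus, a difference of −0.32 ± 0.08 (SE; adjusted p = 0.127). The test used all libraries, control 4 and Ins2 2 included, and took the tissues as independent, which need not hold if both came from the same animals.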

How the data were processed

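The deposited signal values are gene counts that the authors divided by DESeq2 size factors, 1 table per tissue, per the labels; HISAT2, featureCounts and build GRCm38 (mm10) are named in the submitters' processing notes, with versions and strand setting not given in the sources used here. RNA came from a PicoPure kit and libraries were poly(A)-selected and strand-marked, per the labels' protocols. Dividing each library by its smallest step gave whole reads within 0.02 for 100% of values. A count of 0 allows up to 3 reads, 0.0483 to 0.116 per M reads (M, 1000000), which covers counting error only.

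Genes with a mean of at least 10 were tested in each tissue with limma 3.58.1 (R 4.3.3; eBayes with trend) on log2(value + 1), without covariates, adjusted by Benjamini-Hochberg; fold changes on this scale understate those of low genes. edgeR 4.0.16 and DESeq2 1.42.0 on recovered reads were alternatives, beside other pseudocounts, filters, scalings, array weights, removal of a length trend by loess, a replicate block and each library left out. In simulated data limma recovered 50% of genes changed by 0.5 (log2) in choroid plexus and 93% in hypothalamus, and 100% at 1 in both. No 2 libraries of the same group were alike enough to be 1 library deposited again. Libraries of different groups were not compared.

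Members, gene lists, tests and the libraries set apart (hypothalamus control 4 and choroid plexus Ins2 2) were chosen with earlier results of these data known. Members named are a fixed set of 20, those past the threshold, the 5 smallest p-values on each side of 0 per tissue, the 5 largest and 5 smallest differences in hypothalamus control 4, those with means under 10, and the 3 highest and lowest per kilobase; others were picked after their values were seen, and a few that the rule or a list holds are not reported here. Exon lengths and coding sequences are from GENCODE M21.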

Additional observations from a re-analysis of the deposited data

Results flagged for a closer look

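Within each group of 4 to 10 libraries, the gap between the most extreme library and its nearest neighbour was divided by the range of the group, for the summed level and median of the members and subunits and for the named members. Of 174 such ratios 13 exceeded Dixon's 95% value, where chance alone flags about 1 group in 20.

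Choroid plexus Ins2 2 was low among the Ins2 libraries in 6 members, with ratios of 0.768 for Rpl21, 0.716 for Rpl36a, 0.694 for Rplp2, 0.639 for Rps21, 0.629 for Rps28 and 0.671 for Rps3. Hypothalamus control 4 was high in Rps28, with a ratio of 0.816. The remaining ratios concerned other libraries: 0.761 for Rps4x in choroid plexus control 3, which was low; 0.747 for the small-subunit median, 0.713 for Rpl36 and 0.73 for Rps21 in hypothalamus Ins2 1; 0.83 for Rps28 in hypothalamus Ins2 4, which was low; and 0.762 for Rpl3l in hypothalamus Ins2 5, which was high.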

How the results depend on the processing

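The count of members called stayed at 0 in choroid plexus under all 22 alternatives and in hypothalamus under 23 of 24. The exception was the hypothalamus fit with a replicate block. It called 57 genes in all, among them 1 member, Rps12, lower (−0.31, limma adjusted p = 0.0208). That fit kept only replicate numbers present in both groups, so it also left out Ins2 5 and control 6. For Rps12, control 6 lay among the Ins2 libraries. Replicate numbers in the sample titles gave no sign of pairing (correlations of −0.15 to 0.14 between same-numbered libraries). In hypothalamus the column codes do not all follow these numbers, and pairing by code was not tested. In choroid plexus the block, which left out Ins2 6, moved the median to −0.02. The choroid plexus median ran from −0.02 to 0.05 with 1 library left out, −0.01 with the length trend removed and 0.04 with array weights. The hypothalamus median ran from −0.11 to 0.02 with 1 library left out, and was −0.05 with the length trend removed and −0.02 with array weights. Chosen after seeing the data, leaving out control 4 with edgeR, DESeq2, the length trend removed or equal totals gave 0.01, 0.01, 0.01 and 0.003, and choroid plexus Ins2 2 left out with edgeR gave 0.06. Of 1722 recomputed values of named members, 146 had the other sign, none of them past the threshold. Differences near the median standard error of a member, 0.075 in choroid plexus and 0.07 in hypothalamus, were not detectable at this number of libraries.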
